A study of Mus musculus with 10 samples.

Results

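The open chromatin of 10 genes that make, break down or sense retinoic acid was followed in sorted cells of the embryonic mouse heart: Rdh10, Aldh1a1, Aldh1a2, Aldh1a3, Dhrs3, Cyp26b1, Rara, Rarb, Rarg and Rxra. The genes were chosen by name. An accessible site was assigned to a gene when the summit of an ATAC-seq peak lay inside the gene or within 25 kb of it, and it was called a promoter site when it lay within 1 kb of an annotated transcription start site of that gene. By this rule 1609 of the 1071660 summits in the 9 peak lists belonged to the 10 genes. Summits of different libraries were merged into regions that reach 250 bp to each side of a centre, which gave 246 regions for the 10 genes out of 184764 in the genome. Of these 246 regions, 187 had a summit in at least 3 of the 9 libraries and were tested, among 130905 tested regions in all.

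All cells came from C57BL/6J mice carrying Rosa26tdTomato and Wt1CreERT2/+, in which tamoxifen given at E9.5 switches on tdTomato in cells that express Wt1 and in their descendants. Epicardial cells were sorted as CD31-tdTomato+PDPN+ cells at E11.5 (3 libraries, 6 hearts pooled in each) and at E17.5 (3 libraries, 4 hearts in each), and epicardium-derived cells (EPDC) as CD31-tdTomato+PDPN- cells at E12.5 (1 library) and E13.5 (2 libraries, 4 to 13 hearts in each). Each library was made from 40000 to 50000 cells. Pooled littermates mean that a replicate is a pool, not a heart, and labelling depends on the Wt1 promoter that drives the recombinase. The 2 technical replicates of the second E13.5 EPDC sample share one peak list and were counted once. EPDC differ from both epicardial groups in cell population and in stage at once, so these cannot be told apart. E13.5 epicardium was not analysed here.

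Retinoic acid is a small lipid hormone made from vitamin A. RDH10 oxidises retinol to retinal, and the retinal dehydrogenases ALDH1A1, ALDH1A2 and ALDH1A3 oxidise retinal irreversibly to retinoic acid, whereas DHRS3 turns retinal back into retinol. CYP26B1 clears retinoic acid by hydroxylation. The hormone binds the nuclear receptors RARα, RARβ and RARγ, which sit on DNA as heterodimers with RXR partners such as RXRα, typically on direct repeats of a short half-site. The embryonic epicardium is a known source of retinoic acid in the heart, mainly through ALDH1A2, and Rarb is a classical target of the hormone as well as a receptor for it.

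The lists held 94909 to 142743 summits on chromosomes 1 to 19, X and Y. The E11.5 libraries had 119386 to 142743, the E17.5 libraries 94909 to 127933 and the EPDC libraries 102002 to 131830. The EPDC lists also held 252 to 268 lines outside these chromosomes, where the epicardial lists held 0, and the part of this difference in the results was not tested. Strength is given here as a percentile, the share of a library's own summits whose −log10 p was at or below that of the summit at the region, and 0 means that no summit was called there. A difference between groups is given in percentile points. Promoters of 6 of 6 epicardial markers had a summit in every library, with list means of 89.6 to 95.7 in epicardium and 79.3 to 88.4 in EPDC. The promoter of Upk3b, a mesothelial gene, stood at 97.0 to 99.2 in the 6 epicardial libraries and at 73.6, 22.8 and 46.1 in EPDC, and Krt19 was also lower in EPDC (82.9 to 87.6, against 88.4 to 93.5). The other 4 were not below E17.5 epicardium in EPDC, where Wt1 stood at 93.5 to 97.4 and Tbx18 at 95.4 to 98.0. The list mean of 5 mesenchyme markers was 66.9 to 68.0 at E11.5, 76.7 to 78.0 at E17.5 and 80.0 to 83.5 in EPDC. Of these, the promoter of Postn was at 0 in E11.5 epicardium, at 43.5 to 50.2 at E17.5 and at 71.7 to 81.8 in EPDC, and Twist1 was at 84.9 to 91.3 in epicardium and 94.8 to 95.4 in EPDC. Pdgfra ran the other way, at 63.4 to 69.9 at E11.5, 71.2 to 77.0 at E17.5 and 55.5 to 64.7 in EPDC, and Pdgfrb and Col1a1 lay at 84.9 to 94.5 in all libraries. For other cell types, 1 or 2 of 5 endothelial, 1 or 2 of 5 blood and 3 or 4 of 5 cardiomyocyte marker promoters had a summit in a library. The cardiomyocyte gene Tnnt2 was at 85.53 to 89.75 at E11.5, 59.85 to 65.95 at E17.5 and 77.97 to 83.57 in EPDC. Actn2 was likewise lowest at E17.5 (77.85 to 85.24, against 91.51 to 94.51 at E11.5 and 90.03 to 91.14 in EPDC), and Myl4 lay at 96.15 to 99.27 in all libraries. The endothelial Cdh5, Tie1 and Emcn, the blood genes Ptprc, Spi1 and Itgam and the cardiomyocyte gene Myh6 were at 0 in all 9 libraries.

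Sequences of the accessible sites on which the results below turn are given first, in mm10 (GRCm38) and on the strand of the gene. A retinoic acid response element is a direct repeat of the half-site AGGTCA, with G also accepted as the first base and T as the third, and 1, 2 or 5 bases between the copies (DR1, DR2, DR5). Both strands of all 246 regions were searched. A DR5 occurred in 1 region (0.407%, against 0.335% of all 184764 regions), a DR1 in 2 regions (0.813%, against 0.344%) and a DR2 in none (against 0.298%). The DR5 lay in the Rarb promoter, 53 to 37 bases upstream of the RefSeq start, and a DR1 lay in a promoter region of Rxra. Both are shown with the half-sites in capitals.
Rarb DR5, chr14:16575507-16575535, - strand: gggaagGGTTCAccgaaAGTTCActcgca
Rxra DR1, chr2:27710721-27710749, + strand: tctatcagGGGTCAtGGGTCAgagggcat

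The next 3 sites, each of 101 bases around the summit, are from regions whose percentile was higher in E17.5 than in E11.5 epicardium. They are shown because each holds the word TGACTCA or its reverse complement TGAGTCA, the recognition word of AP-1 factors, which is in capitals. This word was looked for after the sequences had been read.
Rdh10 +8.01 kb, chr1:16113734-16113834, + strand: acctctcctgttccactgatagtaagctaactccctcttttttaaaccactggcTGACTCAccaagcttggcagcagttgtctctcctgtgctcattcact
Rara −4.29 kb, chr11:98933355-98933455, + strand: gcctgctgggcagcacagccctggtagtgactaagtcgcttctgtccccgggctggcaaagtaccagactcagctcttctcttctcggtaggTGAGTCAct
Rarb +142.12 kb, chr14:16433377-16433477, - strand: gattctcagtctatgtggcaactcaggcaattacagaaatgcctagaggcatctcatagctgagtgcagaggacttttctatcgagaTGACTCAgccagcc

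The last 5 sites hold no such word within 101 bases and are shown with the 21 bases at the summit in capitals. The Aldh1a1 pair was strongest in E17.5 epicardium, the Dhrs3 site was called in EPDC alone, and the Rarb pair was called in E11.5 epicardium and EPDC but not at E17.5.
Aldh1a1 −7.91 kb, chr19:20484751-20484851, + strand: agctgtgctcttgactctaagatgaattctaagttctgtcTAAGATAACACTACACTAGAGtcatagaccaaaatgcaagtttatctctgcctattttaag
Aldh1a1 +45.78 kb, chr19:20647693-20647793, + strand: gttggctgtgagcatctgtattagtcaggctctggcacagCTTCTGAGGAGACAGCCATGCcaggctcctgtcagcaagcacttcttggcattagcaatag
Dhrs3 +55.07 kb, chr4:144948157-144948257, + strand: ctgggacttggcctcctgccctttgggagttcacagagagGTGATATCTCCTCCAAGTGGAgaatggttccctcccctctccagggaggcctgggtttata
Rarb −119.88 kb, chr14:16695655-16695755, - strand: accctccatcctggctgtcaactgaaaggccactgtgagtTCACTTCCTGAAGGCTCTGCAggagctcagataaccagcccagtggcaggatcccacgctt
Rarb +104.47 kb, chr14:16714486-16714586, - strand: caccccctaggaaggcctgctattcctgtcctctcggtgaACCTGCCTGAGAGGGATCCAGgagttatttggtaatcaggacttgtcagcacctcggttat

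Distances are measured from the nearest annotated start site of the gene, with a plus sign downstream. Most regions of the 10 genes lay in introns of the gene itself (144 of 246), 63 were intergenic, 26 lay in another gene and 13 in an exon. Of 32 promoter regions 16 (50%) were called in all 9 libraries, and of 214 distal regions 50 (23.4%) were. The difference was not tested. The 9 libraries held 162 to 204 summits of the 10 genes each. Of the 187 tested regions, 66 (35.3%) were called in all 9 libraries, against 34.8% of all tested regions.

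Between E11.5 and E17.5 epicardium, 24 of the 187 regions were higher at E17.5 (12.8%, against 11.3% of all tested regions) and 42 were lower (22.5%, against 30.7%), by limma's moderated test with Benjamini-Hochberg adjustment over all regions. The median difference was −1.13 points over the 187 regions and −5.57 over all regions. Because the lists differ in length, the fit was repeated with the same number of strongest summits from each library, 94909. Then 42 of 158 regions were higher (26.6%, against 19.4% of all) and 28 were lower (17.7%, against 23%), so the balance of calls depends on this choice. EPDC were higher than E11.5 epicardium at 31 regions (16.6%, against 12.8%) and lower at 47 (25.1%, against 28.1%). With equal numbers of summits these were 38 (24.1%, against 19.7%) and 33 (20.9%, against 22.9%) of 158. EPDC were higher than E17.5 epicardium at 46 regions (24.6%, against 24.4%) and lower at 42 (22.5%, against 20.1%), and with equal numbers at 39 (24.7%, against 27.8%) and 48 (30.4%, against 26.3%) of 158. The 3 comparisons share libraries, so their counts are not independent of each other, and in bulk lists fewer cells with an open site and a less open site in each cell cannot be told apart. Where a share of the 10 genes lies near that of all regions it says nothing particular about these genes, and the results that follow are about single genes and sites. Counts of called regions per gene were not tested against these shares.

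Some sites were called in every library of one group and in no other library. There were 10 such regions for E17.5 epicardium (5.35%, against 4.2% of all tested regions), 2 for E11.5 (1.07%, against 5.29%) and 9 for EPDC (4.81%, against 4.55%). A further 9 were called in all 6 epicardial libraries and no EPDC library (4.81%, against 2.99%), 9 in all E11.5 and EPDC libraries and in no E17.5 library (4.81%, against 4.92%), and 1 in all E17.5 and EPDC libraries and in no E11.5 library (0.535%, against 0.734%). Of the 10 regions seen at E17.5 alone, 3 belonged to Rara, 2 each to Dhrs3 and Rxra and 1 each to Aldh1a1, Rdh10 and Rarg. Tested regions numbered 32 each for Rara and Rxra, 13 for Dhrs3, 16 for Aldh1a1, 9 for Rdh10 and 11 for Rarg.

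A locus score added up all summits of a gene in a library, each counted as its percentile taken as a fraction, so that it rises with the number and the strength of accessible sites and with the length of the gene. Of the 10 genes, 0 scores were higher and 1 was lower at E17.5 than at E11.5, where 2.94% and 15.5% of all 19090 tested genes were. At an unadjusted p under 0.05 there were 1 higher and 2 lower. Between EPDC and E11.5 epicardium 0 were higher and 0 lower by limma (4.45% and 17.1% of all genes), with 1 at an unadjusted p under 0.05. Between EPDC and E17.5 epicardium 1 was higher and 0 were lower (9.98% and 11.4% of all genes), with 4 at an unadjusted p under 0.05. The gene called in both was Rarb. More of the 10 scores passed with equal numbers of top summits. Between the stages 4 were higher and 1 was lower at E17.5 (20% and 12.6% of the 18882 genes then tested). EPDC had 2 higher and 0 lower than E11.5 (11.9% and 15.7%), and 2 higher and 4 lower than E17.5 (16% and 28.5%).

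**Figure D1:**
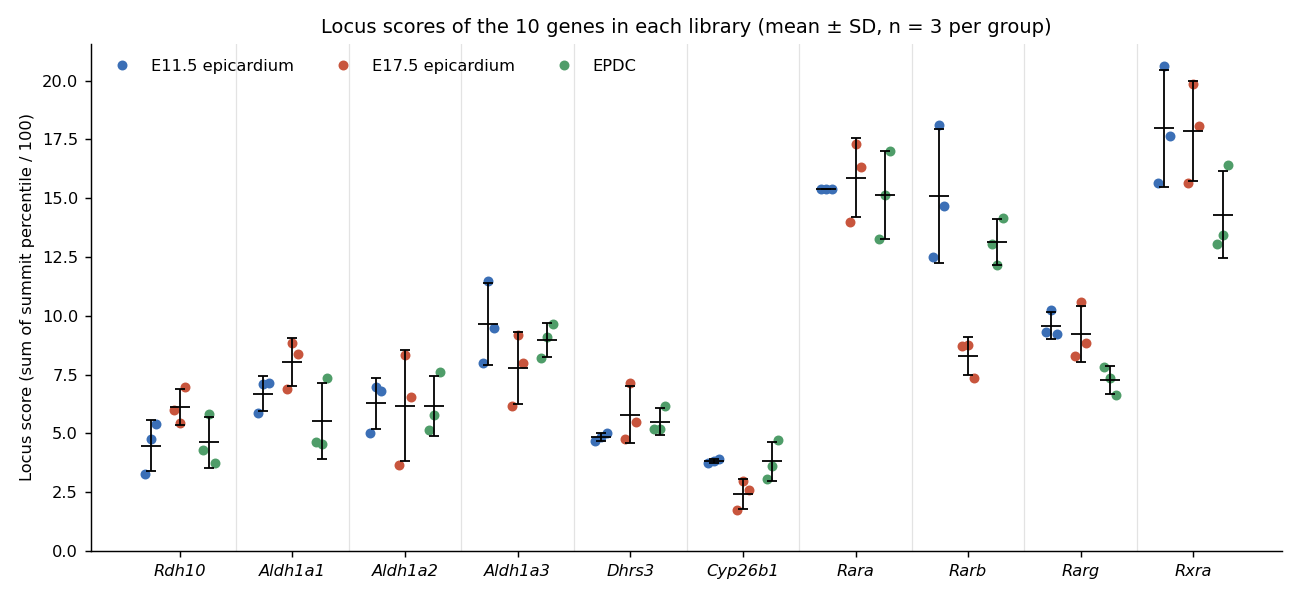
Locus scores of the 10 genes (vertical axis, sum of summit percentiles taken as fractions) in each of the 9 libraries, coloured by group, with the mean ± SD of 3 libraries per group. The 3 E17.5 libraries of Rarb (7.36 to 8.78) lie below the lowest E11.5 library (12.48) and the lowest EPDC library (12.2), and those of Cyp26b1 (1.73 to 2.96) also lie below all its others, where the difference did not pass the test.

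Among the synthesis genes, Rdh10 (chr1:16105774-16133734, + strand) had a locus score of 3.29, 4.75 and 5.39 at E11.5, 5.98, 5.45 and 6.97 at E17.5, and 4.30, 5.80 and 3.74 in EPDC. The E17.5 values lay above the E11.5 values in each library, but the difference of 1.66 did not pass (limma adjusted p = 0.133). The strongest summit within 1 kb of its start was at 87.9 to 94.4 in all 9 libraries, but the region at −0.91 kb that holds most of these summits lies 202 bp from the start site of Rpl7. The region at −0.39 kb stood at 82.1 to 93.0 in 8 libraries, with no summit in its window in E11.5 library 1. The region nearest to the start of Rdh10, at +0.23 kb, had summits in 4 libraries, at 67.8 and 69.6 in E11.5, 74.6 in one E17.5 and 84.6 in one EPDC library. By overlap with any peak, the regions at −0.39 and +0.23 kb were covered in every library. None of these regions was called, and 8 of the 12 Rdh10 regions lay nearest to its own start site. At the intronic site 8.01 kb downstream of the start, shown above, percentiles were 2.23, 6.57 and 0 at E11.5, 49.5, 73.8 and 60.4 at E17.5, and 0 in the 3 EPDC libraries. The E17.5 libraries stood apart from both other groups, by 58.3 points ± 6.55 (SE) from E11.5 (adjusted p = 0.000154) and by −61.2 points for EPDC against E17.5 (adjusted p = 8.47e-05). Of 9 tested Rdh10 regions 3 were higher and 1 was lower at E17.5 than at E11.5 (11.3% and 30.7% of all regions), and 3 were lower and 0 higher in EPDC than at E17.5 (20.1% and 24.4%).

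Aldh1a1 (chr19:20492715-20643465, + strand) had a locus score of 5.85, 7.08 and 7.15 at E11.5, 6.91, 8.86 and 8.38 at E17.5 and 4.64, 4.53 and 7.37 in EPDC, with overlapping groups and no call. It was called higher with equal numbers of summits at E17.5 than at E11.5 (2.10, adjusted p = 0.00262) and lower in EPDC than at E17.5 (−2.67, adjusted p = 0.000399). At the start site furthest upstream no summit was called at E11.5, whereas percentiles were 55.8, 53.9 and 46.7 at E17.5 and 0, 0 and 19.7 in EPDC. The difference between the stages was 52.1 points ± 6.40 (SE, adjusted p = 0.000245). At the start site inside the gene the percentiles were 86.5, 89.2 and 82.3 at E11.5, 87.8, 92.6 and 85.5 at E17.5 and 72.2, 46.3 and 62.7 in EPDC. The epicardial stages overlapped here, and every EPDC library was below every epicardial one, with a difference of −25.6 points from E11.5 (adjusted p = 0.00625). The third promoter region, 0.74 kb upstream of that start site, had 43.9, 54.1 and 53.9 at E11.5, 61.03, 68.0 and 56.6 at E17.5 and 58.4, 67.9 and 68.9 in EPDC. E11.5 libraries lay below all others there, with no call (EPDC minus E11.5 14.5, adjusted p = 0.0515), whereas equal numbers of summits gave calls for E17.5 (25.1 points, adjusted p = 0.00167) and EPDC (27.5 points, adjusted p = 0.00109) over E11.5. By overlap with any peak the sign turned for EPDC minus E11.5 (−16.3 points).

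Distal sites of Aldh1a1 also separated the groups. The site at −7.91 kb, which lies in an intron of the neighbouring transcript C730002L08Rik, rose from 30.9, 38.3 and 53.6 at E11.5 to 83.7, 90.0 and 88.0 at E17.5 (46.3 points, adjusted p = 0.000485) and had no summit in EPDC. The intergenic site 45.78 kb downstream was called in E17.5 epicardium alone, at 70.7, 75.7 and 67.0 (71.1 points, adjusted p = 1.79e-05). Its neighbour at +46.92 kb, picked after its values were seen, ran the opposite way, at 55.0, 65.0 and 67.5 at E11.5, 34.0, 28.9 and 34.0 at E17.5 and 67.5, 75.9 and 73.5 in EPDC (E17.5 minus E11.5 −30.2, adjusted p = 0.00117). A strong intronic site at +43.97 kb stood at 96.3 to 97.3 in all 6 epicardial libraries and at 76.4, 56.4 and 66.7 in EPDC, a difference of −30.4 points from E17.5 (adjusted p = 0.000281). In an exon at +32.53 kb percentiles were 59.8, 68.9 and 71.9 at E11.5, 11.7, 27.8 and 0 at E17.5, and 87.9, 84.4 and 87.9 in EPDC. E17.5 differed from E11.5 there by −53.7 points (adjusted p = 0.000355), and EPDC was above E17.5 by 73.6 points (adjusted p = 4.65e-05). Of 16 tested Aldh1a1 regions 7 were lower and 4 higher in EPDC than at E17.5 (20.1% and 24.4% of all regions), and 8 and 2 with equal numbers of summits (26.3% and 27.8%).

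**Figure D2:**
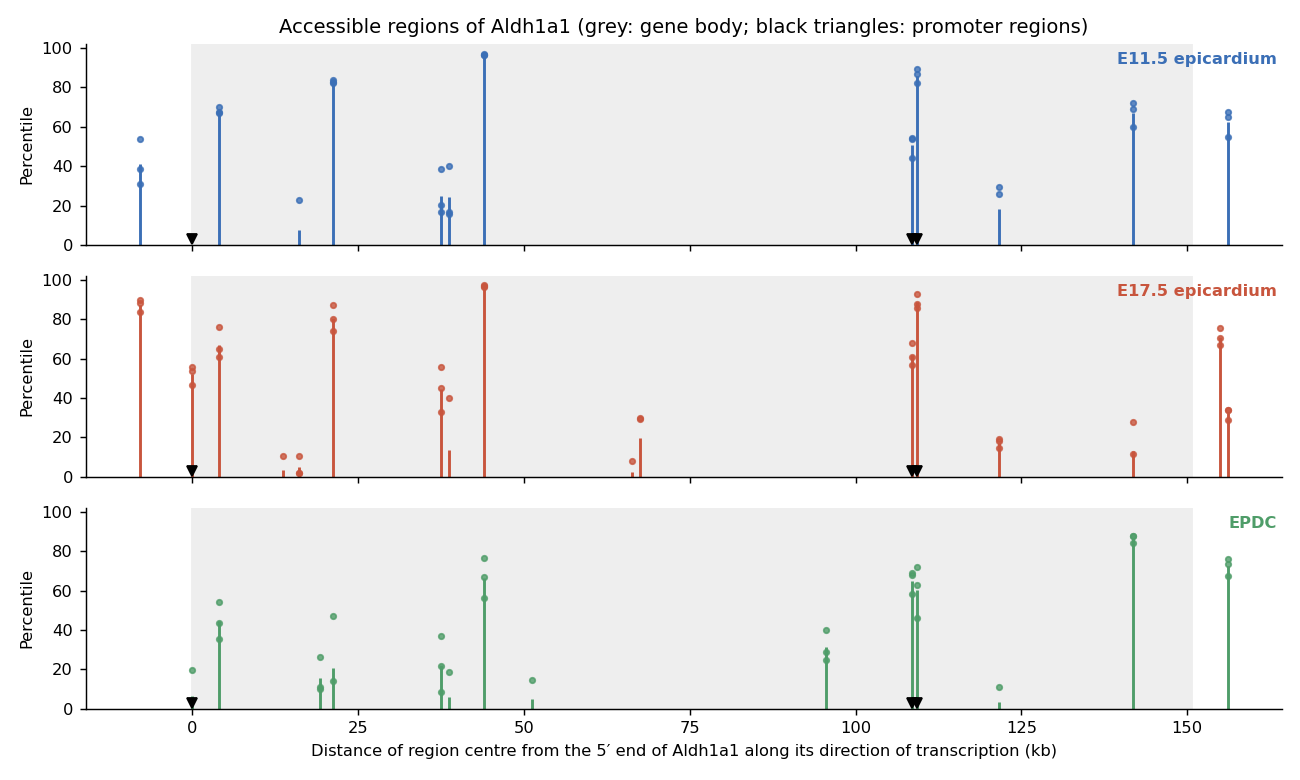
Accessible regions of Aldh1a1 by distance from its 5′ end in kb (horizontal axis) against percentile (vertical axis), one panel per group. Dots are libraries, bars are group means, black triangles mark promoter regions, and the bar upstream of the 5′ end and the nearer of the pair past the 3′ end are highest in the E17.5 panel, where the further one of the pair is lowest.

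Aldh1a2 (chr9:71215789-71296243, + strand), the main retinal dehydrogenase of the epicardium, kept a strong promoter in all groups. Its strongest promoter summit was at 94.8, 92.5 and 94.0 at E11.5, 96.0, 97.3 and 96.7 at E17.5 and 85.9, 86.3 and 91.6 in EPDC, so that every EPDC library lay below every epicardial library. In E11.5 library 1 this summit fell outside the 250 bp window of the promoter region, which therefore reads 0 there. The fit on that region gave no call. Without that library EPDC were lower than E11.5 (−5.33 points, adjusted p = 0.0437), as they were with any overlapping peak in place of a summit (−5.83 points, adjusted p = 0.0126). The locus score did not separate the groups (5.02, 6.99 and 6.82 at E11.5, 3.65, 8.33 and 6.55 at E17.5, 5.15, 5.78 and 7.60 in EPDC). The strongest distal site, in an intron at +26.42 kb, stood at 90.3, 91.0 and 88.5 at E11.5, at 66.4, 73.8 and 65.2 at E17.5 and at 65.5, 60.1 and 65.1 in EPDC. E11.5 libraries were above all others, with differences of −21.4 points for E17.5 minus E11.5 (adjusted p = 0.000456) and −26.4 points for EPDC minus E11.5 (adjusted p = 0.000181). Another intronic site, at +60.64 kb and picked after its values were seen, had 76.2, 74.7 and 71.2 at E11.5, 42.4, 32.3 and 29.9 at E17.5 and 90.1, 84.0 and 85.7 in EPDC, with no overlap between any of the groups.

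Aldh1a3 (chr7:66390890-66427517, - strand) differed at its promoter. The promoter percentile was 83.6, 87.2 and 84.9 at E11.5, 89.2, 87.6 and 87.9 at E17.5 and 95.8, 96.5 and 97.0 in EPDC. EPDC lay above both epicardial groups, by 11.2 points over E11.5 (adjusted p = 9.89e-05) and by 8.21 points over E17.5 (adjusted p = 0.00033). The stages did not overlap either and gave no call (3.00 points, adjusted p = 0.0583), whereas with equal numbers of summits E17.5 was called higher (6.87 points, adjusted p = 0.00564). Of its 22 tested regions 0 were higher and 4 lower at E17.5 than at E11.5 (11.3% and 30.7% of all regions), while with equal numbers of summits 3 were higher and 2 lower (19.4% and 23%). Its locus score gave no call in any comparison, and 15 of its 23 regions lay nearest to a start site of Aldh1a3 itself.

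Dhrs3 (chr4:144892827-144928209, + strand), which opposes synthesis by reducing retinal, had 4 regions that were higher and 4 that were lower of 13 tested in EPDC than at E11.5 (12.8% and 28.1% of all regions), and 4 and 4 than at E17.5 (24.4% and 20.1%). These became 4 and 3 (19.7% and 22.9%), and 2 and 5 (27.8% and 26.3%), with equal numbers of summits. Its main promoter region had percentiles of 61.1, 58.0 and 67.8 at E11.5, 73.0, 64.0 and 70.2 at E17.5 and 75.7, 81.6 and 84.4 in EPDC. EPDC were above E11.5 by 18.3 points (adjusted p = 0.00546), and the stages overlapped. The intergenic site at +55.07 kb was called in EPDC alone, at 60.1, 77.9 and 79.2 (72.4 points over E11.5, adjusted p = 4.26e-05). The intergenic site at +37.41 kb had 66.0, 57.7 and 63.2 at E11.5, 75.9, 81.4 and 75.7 at E17.5 and 87.3, 89.0 and 92.2 in EPDC, with no overlap between any of the groups and a call in each comparison. The 4 regions lower in EPDC than at E11.5, all intergenic, were at −17.09 kb (−39.7 points, adjusted p = 0.00029), +56.61 kb (−25.5, adjusted p = 0.00389), −1.24 kb (−16.4, adjusted p = 0.0128) and +41.67 kb (−14.8, adjusted p = 0.0433). The site at +58.90 kb was called at E17.5 alone (41.8, 64.8 and 54.6). The intronic site at +13.19 kb had 22.9, 0 and 0 at E11.5 (22.9, 31.7 and 6.76 by overlap with any peak), 49.1, 49.97 and 49.8 at E17.5 and 49.1, 67.2 and 69.5 in EPDC. The locus score showed no call in the main fit, whereas with equal numbers of summits it was higher at E17.5 (1.83, adjusted p = 0.000482) and in EPDC (1.63, adjusted p = 0.000751) than at E11.5.

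Cyp26b1 (chr6:84571414-84593908, - strand), the enzyme of breakdown, had the weakest promoter of the 10 genes in each library. Its strongest promoter summit was at 49.2, 51.3 and 45.4 at E11.5, 30.0, 47.6 and 40.1 at E17.5 and 53.4, 52.1 and 58.4 in EPDC. None of its tested promoter regions was called in any comparison, whereas with equal numbers of summits the region at −0.36 kb was higher in EPDC than at E11.5 (34.3 points, adjusted p = 0.00439, against 17.3 points with all summits). Its locus score was 3.75, 3.81 and 3.91 at E11.5, 1.73, 2.96 and 2.60 at E17.5 and 3.08, 3.62 and 4.73 in EPDC. The E17.5 libraries lay below all others, but the differences did not pass (−1.40 against E11.5, adjusted p = 0.0612, and 1.38 for EPDC minus E17.5, adjusted p = 0.0571). With equal numbers of summits EPDC were called higher than E17.5 (0.988, adjusted p = 0.00132) and than E11.5 (0.678, adjusted p = 0.0153), and the stage difference was −0.31 (adjusted p = 0.185). The strongest distal site, in an intron at −1.76 kb, ranged from 59.2 to 80.1 over the 9 libraries and was not called.

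**Figure D3:**
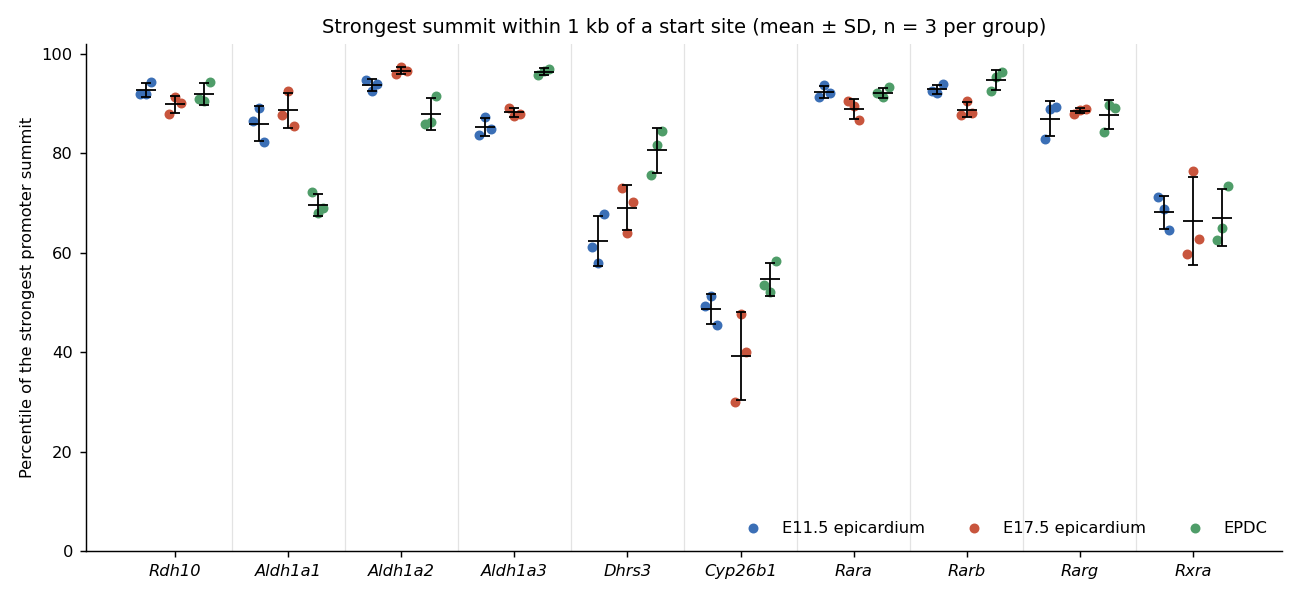
Percentile of the strongest summit within 1 kb of a start site of each gene (vertical axis) in the 9 libraries, coloured by group, with the mean ± SD of 3 libraries. Cyp26b1 is lowest in every library, the EPDC values of Aldh1a1 (67.9 to 72.2) and Aldh1a2 (85.9 to 91.6) lie below the epicardial ones, and those of Aldh1a3 (95.8 to 97.0) lie above.

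Among the receptors, Rarb (chr14:16430839-16819156, - strand) had the called locus scores. Its locus score was 12.48, 18.1 and 14.7 at E11.5, 8.71, 8.78 and 7.36 at E17.5 and 13.1, 12.2 and 14.1 in EPDC. E17.5 libraries were below every other library, with a difference from E11.5 of −6.81 ± 1.41 (SE, limma adjusted p = 0.00718), and this call held in each alternative that was tried. EPDC were 4.85 ± 1.41 above E17.5 (adjusted p = 0.031), a call that was lost with ranks by fold enrichment (adjusted p = 0.0507), without E17.5 replicate 2 or 3, and without any of the EPDC libraries (adjusted p from 0.0587 to 0.12 in these 5 fits). Between EPDC and E11.5 the difference of −1.96 did not pass (adjusted p = 0.338). In number, Rarb had 28 to 39 summits at E11.5, 17 to 19 at E17.5 and 26 to 32 in EPDC. With equal numbers of summits these were 19 to 23, 11 to 17 and 22 to 29, and the stage difference was −2.46 (adjusted p = 0.0237). The gene is the longest of the 10, at 388.32 kb.

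The differences between groups were spread along the gene. Of 29 tested Rarb regions 14 were lower and 1 was higher at E17.5 than at E11.5 (30.7% and 11.3% of all regions), and with equal numbers of summits 9 were lower and 2 higher (23% and 19.4%). Against E17.5 epicardium, EPDC were higher at 15 and lower at 2 of the 29 (24.4% and 20.1% of all regions), and 14 and 2 of these calls held in both fits. Both sets of counts rest on the same E17.5 libraries. Against E11.5, EPDC were higher at 4 and lower at 7 (12.8% and 28.1% of all regions). With equal numbers of summits these were 8 and 3 (19.7% and 22.9%). Of the 9 regions called in all E11.5 and EPDC libraries and in no E17.5 library, 5 belonged to Rarb, out of its 29 tested regions. Of all tested regions 4.92% had this pattern. The intronic site at +104.47 kb had 75.7, 76.0 and 87.0 at E11.5, no summit in the 3 E17.5 libraries, and 75.2, 59.0 and 67.0 in EPDC. E17.5 stood apart by −79.6 points ± 5.82 (SE) from E11.5 (adjusted p = 2.2e-05), while E11.5 and EPDC gave no call between them. At −119.88 kb, also in an intron, percentiles were 68.6, 60.6 and 52.0 at E11.5, no summit at E17.5, and 81.4, 83.1 and 87.0 in EPDC, and here EPDC lay above E11.5 as well (23.4 points, adjusted p = 0.00793). The site at +126.62 kb followed the same course, at 71.8, 71.9 and 76.8, then 7.80, 0 and 6.39, and 64.1, 61.02 and 56.1 in EPDC, and its nearest start site is that of another gene, Top2b, at 35206 bp.

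Other Rarb sites went the opposite way. At +142.12 kb, in an intron, percentiles were 20.02, 44.1 and 28.9 at E11.5, 72.1, 80.8 and 74.1 at E17.5 and no summit in EPDC (44.7 points between stages, adjusted p = 0.000824). This site also lies in Top2b, whose start site is the nearest at 19710 bp. It was the one Rarb region that was higher at E17.5. At +20.19 kb percentiles were 67.0 to 76.4 at E11.5, 77.8 to 79.1 at E17.5 and 0 in EPDC, but a called EPDC peak whose summit lay elsewhere covered this region. Counted by overlap with any peak, EPDC were 4.05 points above E11.5 and 11.9 points above E17.5, so its direction depends on the use of summits.

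The Rarb promoter that holds the DR5 was open in every library. Its percentiles were 92.6, 92.1 and 93.9 at E11.5, 87.8, 90.6 and 88.0 at E17.5 and 92.5, 95.4 and 96.3 in EPDC. E17.5 libraries were below all others. The differences were −4.05 points for E17.5 minus E11.5 (adjusted p = 0.0261) and 5.93 points for EPDC minus E17.5 (adjusted p = 0.00366). The stage call was lost with equal numbers of summits and in several other alternatives, including without E11.5 replicate 1 or 3 or E17.5 replicate 1 or 3. The promoter at the start site furthest upstream was weaker and less steady, at 37.8, 50.5 and 62.7 at E11.5, 0 in all E17.5 libraries, and 31.9, 19.6 and 35.2 in EPDC. The 3 groups did not overlap, and the stages differed by −50.4 points ± 7.37 (SE, adjusted p = 0.000646).

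**Figure D4:**
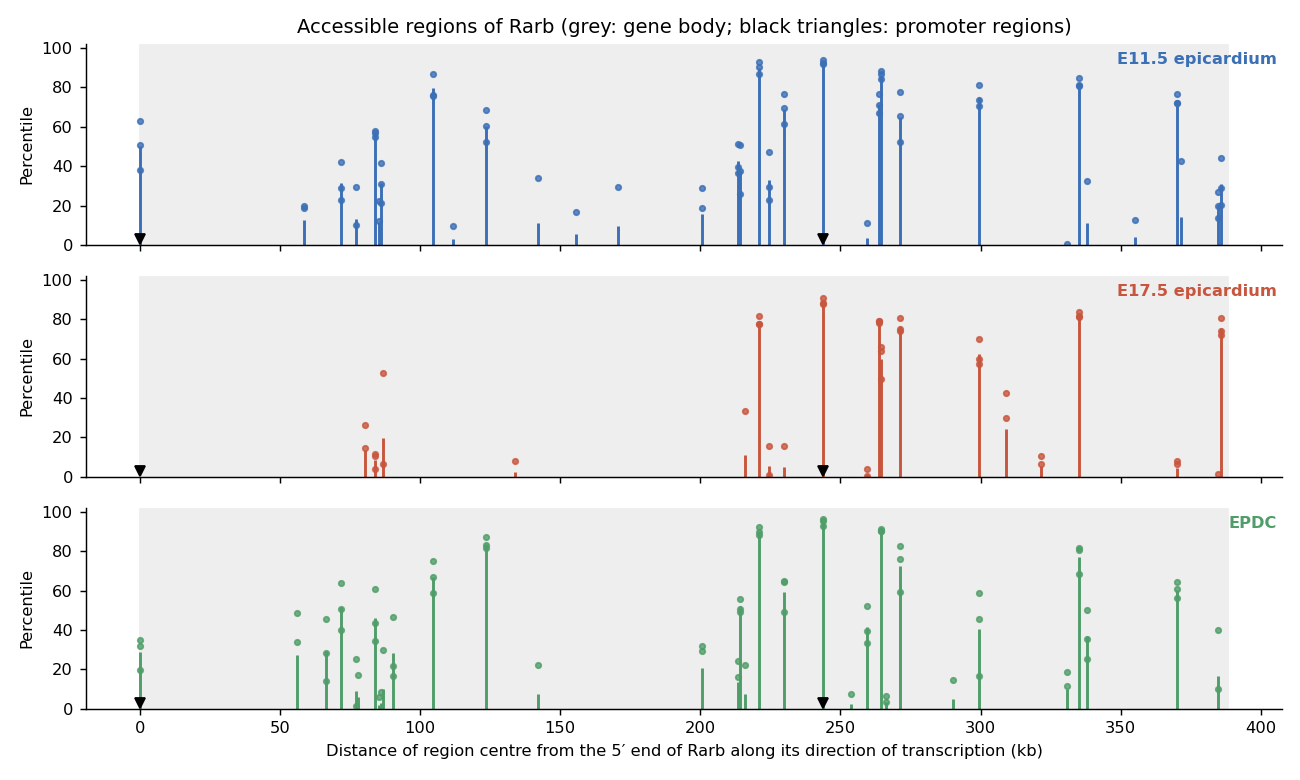
Accessible regions of Rarb by distance from its 5′ end in kb (horizontal axis) against percentile (vertical axis), one panel per group, with dots for libraries, bars for group means and black triangles for promoter regions. Most bars between the 5′ promoter and the second promoter, and a tall bar near the 3′ end, are seen in the E11.5 and EPDC panels and are absent or short in the E17.5 panel.

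Rara (chr11:98927818-98974942, + strand) had its strongest promoter summit at 86.6 to 93.7 in all 9 libraries. The promoter region at −0.11 kb was slightly lower at E17.5 than at E11.5 (−3.52 points, adjusted p = 0.0481, and 0.243 with equal numbers of summits). The promoter region at −0.76 kb had 68.6, 79.8 and 74.4 at E11.5, 84.3, 87.6 and 86.3 at E17.5 and 81.1, 91.3 and 91.5 in EPDC. E11.5 libraries lay below all others there, by 11.8 points from E17.5 (adjusted p = 0.0218) and 13.7 points from EPDC (adjusted p = 0.0116). The locus score overlapped between groups and gave no call, whereas with equal numbers of summits it was higher at E17.5 than at E11.5 (3.18, adjusted p = 0.0104) and lower in EPDC than at E17.5 (−2.05, adjusted p = 0.0482). Of the 37 Rara regions 27 lay nearest to its own start site. The intronic site at −4.29 kb had the lowest adjusted p of all tested regions of the 10 genes between the stages. It had no summit at E11.5, percentiles of 72.3, 73.7 and 68.8 at E17.5, and no summit in EPDC (71.6 points, adjusted p = 1.66e-05). Libraries at 0 add no spread of their own to this fit. By fold enrichment the peak was weak, at 4.07, 3.69 and 3.46 at E17.5, against 12.26, 13.62 and 11.45 at Aldh1a1 +45.78 kb. An intronic site at +6.42 kb was epicardial, with 55.6, 65.8 and 61.7 at E11.5, 67.0, 73.8 and 72.2 at E17.5 and no summit in EPDC. Of 32 tested regions 5 were higher and 4 lower at E17.5 than at E11.5 (11.3% and 30.7% of all regions), and with equal numbers of summits 8 were higher and 1 lower (19.4% and 23%). Rarg (chr15:102234938-102257517, - strand) had a locus score of 9.30, 10.2 and 9.22 at E11.5, 8.27, 10.6 and 8.86 at E17.5 and 7.81, 7.35 and 6.64 in EPDC. EPDC libraries lay below all others, but the differences did not pass (−2.32 from E11.5, adjusted p = 0.06, and −1.96 from E17.5, adjusted p = 0.103). Equal numbers of summits gave a call for EPDC minus E17.5 (−1.92, adjusted p = 0.0154) and none for EPDC minus E11.5 (−0.676, adjusted p = 0.381). Of the 15 Rarg regions only 8 lay nearest to its own start site, so the score also holds sites nearer to other genes. The strongest distal one lies 41 bp from the start site of Mfsd5. Rarg had its largest promoter difference between the stages at its upstream start site, where percentiles were 55.8, 59.5 and 41.8 at E11.5, 84.4, 84.0 and 88.9 at E17.5 and 54.2, 68.4 and 73.3 in EPDC, so that the E17.5 libraries were above all others (33.4 points over E11.5, adjusted p = 0.00195). By overlap with any peak the difference was 12.6 points and did not pass. The Rarg intron at +4.20 kb ran the other way, at 85.2, 83.3 and 88.6 at E11.5, 0, 57.1 and 0 at E17.5 and 61.8, 69.3 and 75.2 in EPDC (E17.5 minus E11.5 −66.6, adjusted p = 0.00385).

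Rxra (chr2:27676440-27762957, + strand), the common dimer partner, had 38 regions and a locus score of 15.6, 20.6 and 17.7 at E11.5, 15.6, 19.9 and 18.1 at E17.5 and 13.1, 13.4 and 16.4 in EPDC. No comparison was called, and with equal numbers of summits E17.5 was higher than E11.5 by 3.05 (adjusted p = 0.00281), against −0.119 with all summits, and EPDC were lower than E17.5 (−3.71, adjusted p = 0.000561). The promoter region with the DR1 had 52.6, 61.1 and 55.3 at E11.5, no summit at E17.5 and 8.44, 15.3 and 18.8 in EPDC (E17.5 minus E11.5 −56.3, adjusted p = 5.5e-05). By overlap with any peak it stood at 2.51, 26.1 and 20.8 at E17.5 and 16.8, 15.3 and 18.8 in EPDC, so that these groups overlap while both stay below every E11.5 library. The intronic site at +7.83 kb was epicardial, with 80.0 to 90.5 in the 6 epicardial libraries and 24.7, 0 and 25.7 in EPDC, and so was the site at +19.62 kb, at 44.7 to 65.8 against 0. The site at +5.14 kb was called in EPDC alone, at 36.1, 75.2 and 72.8 (61.4 points over E11.5, adjusted p = 0.00103). Of 32 tested Rxra regions 10 were lower and 7 higher in EPDC than at E17.5, where 20.1% and 24.4% of all regions were.

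**Figure D5:**
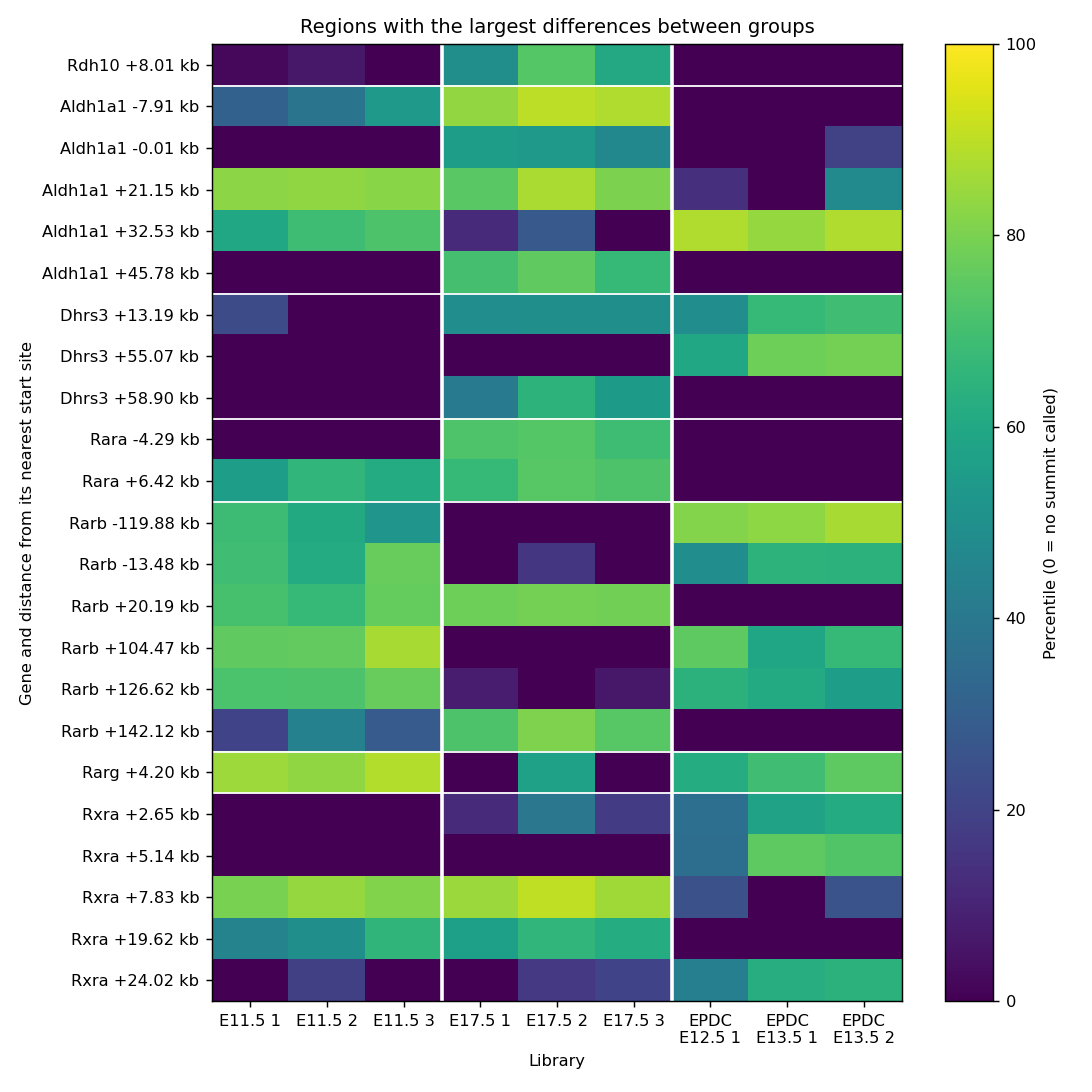
Percentiles (colour scale, 0 for no summit) of the 23 regions with the largest called differences or with calls in every library of one group and none of another, by gene and distance from the nearest start site (rows) in the 9 libraries (columns). The Rarb rows at −119.88, −13.48, +104.47 and +126.62 kb are dark in the E17.5 columns, and the Rara row at −4.29 kb and the Rdh10 row at +8.01 kb are bright in the E17.5 columns alone.

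The AP-1 word shown above for 3 sites was counted in all regions as a description. It occurred in 45 of the 246 regions (18.3%) and in 16.8% of all 184764 regions. Of the 24 regions of the 10 genes that were higher at E17.5 than at E11.5, 11 held it (45.8%), against 28.7% of all 14794 regions that were higher. Of the 42 that were lower, 4 held it (9.52%), against 14.6% of all 40129. Of the 42 regions lower in EPDC than at E17.5, 15 held it (35.7%), against 29.7% of all 26265, and of the 46 that were higher 5 did (10.9%, against 11.9%). Of the sites described above that were higher at E17.5 than at E11.5, the word lay in the Aldh1a1 regions at the upstream start site and at −7.91 kb, Rdh10 +8.01 kb, Dhrs3 +13.19 kb, Rara −4.29 kb, Rarb +142.12 kb and the upstream Rarg promoter. Also higher, but without the word, were Aldh1a1 +45.78 kb, Dhrs3 +37.41 and +58.90 kb and Rara −0.76 kb. Of the described sites that were lower, the word lay in the Rarb promoter furthest upstream and at Aldh1a1 +46.92 kb. It was absent from Rarb −119.88, +104.47 and +126.62 kb. The strongest distal Rarb region, in an intron at −22.49 kb, held it and was lower at E17.5 (−10.9 points, limma adjusted p = 0.00189). The word also lay in sites with no call between the stages, namely Aldh1a1 at +43.97 kb and at the start site inside the gene, Rdh10 −0.39 kb, Dhrs3 −1.24 kb and Rarb +20.19 kb. Words bound by WT1 (GCGGGGGCG, GCGGGGGAG, GCGTGGGCG and GCGTGGGAG, both strands) occurred in 13 regions (5.28%, against 3.18%), the Aldh1a2 promoter among them.

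A wider list of 13 genes of the pathway covered retinol uptake and storage (Rbp4, Stra6, Lrat), carriers of retinoic acid (Crabp1, Crabp2), other oxidoreductases (Rdh11, Adh7), the remaining Cyp26 enzymes (Cyp26a1, Cyp26c1), RXR partners (Rxrb, Rxrg) and coregulators (Ncor1, Nrip1). Of the 13 locus scores 0 were higher and 3 lower at E17.5 than at E11.5 (Crabp1, Cyp26a1 and Cyp26c1), where 2.94% and 15.5% of all genes were. Equal numbers of summits gave 3 higher and 3 lower (20% and 12.6% of all genes). EPDC had 0 higher and 3 lower than E11.5 (Rbp4, Crabp1 and Cyp26a1), against 4.45% and 17.1% of all genes, and 1 higher and 0 lower than E17.5 (Crabp1), against 9.98% and 11.4%. With equal numbers these became 1 and 4 (11.9% and 15.7% of all genes), and 0 and 4 (16% and 28.5%). Crabp1, a cytosolic retinoic acid binder, had scores of 3.67, 4.21 and 3.78 at E11.5, 0.666, 0.694 and 0.7 at E17.5 and 2.30, 1.51 and 2.62 in EPDC, with no overlap between groups. Cyp26a1 and Cyp26c1 are neighbours and share most of their summits, so that they are not separate observations.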

How the data were processed

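ATAC-seq libraries were sequenced by the authors as 2 × 40 bp reads and processed with the nf-core atacseq pipeline on mm10, and MACS2 2.2.9.1 then called peaks and their summits (q-value limit 0.01). The deposited narrowPeak lists give fold enrichment over background (a ratio, in the file's signal column) and −log10 p and −log10 q as written by the authors' peak caller. No read counts were used here, so depth is unknown and its precision cannot be stated. The study's own methods test window counts with edgeR, which peak lists do not allow.

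Summits on chromosomes 1 to 19, X and Y were ranked by −log10 p within each library and turned into percentiles. Regions took the strongest summit within 250 bp of their centre, and 92.9% of summits fell in a region. Regions called in at least 3 of 9 libraries, and the locus scores of protein-coding genes, were compared between the 3 groups of 3 with limma 3.58.1 in R 4.3.3 (group means over all 9 libraries, trend and robust variance moderation), with Benjamini-Hochberg adjustment over all features and a threshold of 0.05. The scripts were tested on simulated data. Of simulated stage differences of 30 and 60 points, 51.1% and 91.2% were called, and 3.69% of calls were false. The simulation used normal noise around each region's mean, so it does not cover summits missing from single libraries. Gene models were GENCODE M21 on GRCm38.p6, the same assembly as mm10. RefSeq promoter entries matched 8 of the 10 genes, without Aldh1a3 and Rdh10. Whether replicates were separate litters is not given in the sources used here, and p-values measure the spread between these pools.

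Named regions were every promoter region, the distal region of highest mean per gene, the 5 largest called differences per comparison and direction, and the strongest of those called in every library of one group and in none of another. The genes, lists and tests were chosen with earlier results of these data known. The wider list of 13 genes leaves out 2 further genes that are not reported here. Alternatives were ranks by fold enrichment, equal numbers of top summits, −log10 q of at least 5, a log2 depth-normalized score, no filter, overlap of peak intervals by any base, the 6 epicardial libraries alone with and without a replicate block, start sites reduced to the gene's 5′ end, and leaving out each library.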

Additional observations from a re-analysis of the deposited data

How the results depend on the processing

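The number of called regions of the 10 genes stayed within 1.5 times the reported count under every alternative. Leaving out one library gave 49 to 67 regions between the stages, 55 to 76 between EPDC and E11.5 and 61 to 86 between EPDC and E17.5. Counts of called locus scores were less steady. Between the stages 1 score was called, against 2 with fold enrichment ranks, 5 with equal numbers of summits, 4 with the log2 score, 2 in the 6 epicardial libraries alone and 1 to 2 without one library. Between EPDC and E11.5 it was 0, against 2 with equal numbers, 2 with the log2 score and 0 to 1 without one library. Between EPDC and E17.5 it was 1, against 6, 5 and 0 to 2. With the gene's 5′ end as the start site 15 promoter regions remained of 32.

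Replicate numbers did not pair the epicardial samples, since same-numbered libraries correlated at 0.0315, 0.0583 and −0.034 in their deviations from the group means. With the replicate block the 6 epicardial libraries gave 72 called regions and 3 called locus scores between the stages, against 65 and 2 without the block.

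Reversed signs came mostly with peak overlap in place of summits: Rara +0.51 kb (−3.52 points between the stages), Rarb +20.19 kb (−7.84, 4.05 and 11.9 in the 3 comparisons), Aldh1a1 −0.74 kb (−16.3 and −18.96 for EPDC minus E11.5 and E17.5), Aldh1a2 −0.03 kb (−5.83 for EPDC minus E11.5, and −5.33 to 41.7 when one library was left out, the lowest without E11.5 replicate 1) and Rxra −0.15 kb (0.695 for EPDC minus E17.5). With equal numbers of summits the locus scores of Rxra between the stages (3.05) and of Cyp26b1 between EPDC and E11.5 (0.678) reversed from values near 0 (−0.119 and −0.016), whose sign also varied when one library was left out (−1.28 to 1.20 and −0.475 to 0.351). The cause was not tested. Of 1334 alternative values for called differences of named regions, 1237 kept direction and call, 94 lost the call and 3 reversed. Many named regions were picked as the largest called differences of these same data, so this share does not carry over to other regions. Over all regions the log2 score shifted the median by −0.212 between the stages and −0.305 between EPDC and E11.5, with medians of 0 and −0.008 over the regions of the 10 genes. Without counts, a difference at a weak site cannot be separated from unequal depth.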
